A study of Mus musculus with 6 samples.

Results

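Most mitochondrial proteins are made in the cytosol and enter the organelle through protein translocases, and small molecules then cross its inner membrane through carriers. The genes described here are the translocase genes, whose symbols start Timm or Tomm followed by a number, and the carrier genes, whose symbols start Slc25a followed by a number, with Slc25a37 and Slc25a38 set aside. The symbol rule found 65 genes among 18193 measured, 23 translocases and 42 carriers. RNA was measured on an Affymetrix mouse expression array in 2 populations sorted by flow cytometry from wild-type C57BL/6 mice, with 3 arrays of each, after linear amplification of their total RNA. LSK cells (low in lineage markers, Sca-1 positive, Kit positive) hold the blood stem cells and multipotent progenitors. LK cells (low in lineage markers, Sca-1 negative, Kit positive) hold the committed progenitors. The labels give no age, sex, number of animals or pooling, both populations are mixtures, and the animals carry no named transgene or treatment.

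In the outer membrane, the TOM complex is the entry gate: receptors such as Tomm20, Tomm22 and Tomm70a bind incoming proteins and Tomm40 forms the channel. In the inner membrane, the TIM23 complex (Timm23, Timm17a or Timm17b, Timm50, Timm44, Timm21) takes proteins with a cleavable targeting sequence, and the TIM22 complex inserts the carriers themselves, which small TIM chaperones (Timm8a1, Timm8b, Timm9, Timm10, Timm13) escort across the space between the membranes. The Slc25 carriers exchange ADP for ATP and move phosphate, carboxylates, amino acids, acylcarnitines and cofactors. Blood stem cells are known for a low reliance on mitochondrial respiration, and committed progenitors for a higher one.

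Intensities are given on the log2 scale, and every difference is LSK minus LK, so that a negative value means less signal in LSK. A gene passed the test when its limma p, adjusted over all 18193 genes, was under 0.05. Differences are compressed where signal is dim, near a log2 of 3, and 3 translocases and 18 carriers had a mean under 4 in both populations. The level of one probe set was not set against that of another. The arrays numbered 2 stood apart in both populations: the upper quartile of intensity was 22.1 in LSK and 20.8 in LK on these, and 24.3 to 25.8 on the other 4. For the control genes Actb and Gapdh, the log2 gap of 3' over 5' probe sets, which grows with RNA degradation and short amplification products, ran from 2.32 to 3.30 in LSK and from 3.26 to 3.94 in LK. Results are also given with both of those arrays left out and with this gap as a covariate. The gap largely followed the population, with overlap only between LSK replicate 3 (3.30) and LK replicate 1 (3.26). A fit with this covariate therefore cannot tell population from RNA quality, and a call lost in it is not assigned to either.

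The stem, lymphoid-primed, erythroid and granulocyte markers matched the labels of the sorted populations. The gating marker Sca-1 was not among the genes examined here. All 5 stem and multipotent genes measured were higher in LSK (summed intensity 3573 to 4627 in LSK and 272.4 to 420.5 in LK), as were 3 of 4 lymphoid-primed genes. In LSK 4 of 5 erythroid genes were lower (627.3 to 1088 in LSK and 4318 to 7495 in LK), 5 of 6 genes of granulocyte and macrophage progenitors (4710 to 10133 in LSK and 15825 to 30235 in LK) and 3 of 7 genes of dividing cells (4897 to 6530 in LSK and 8714 to 10026 in LK). Kit, positive in both gates, had more signal in LSK without overlap (difference 0.81, limma adjusted p = 0.124, 0.0185 with the block). None of 4 megakaryocyte, 4 mast cell and basophil, 3 B-cell, 3 T-cell and NK-cell and 4 stromal genes passed. At an unadjusted limma p under 0.05 the counts were 3 (1 higher in LSK and 2 lower), 1 (lower), 0, 1 (lower) and 0. The summed mast cell and basophil intensity was 52.2 to 226.3 in LSK and 242.8 to 654.7 in LK. With the block 2 megakaryocyte and 2 mast cell and basophil genes passed, and 5 of 5 erythroid, 6 of 6 granulocyte and macrophage and 4 of 7 dividing-cell genes. The B-cell and stromal genes stayed at or below a log2 of 3.99 on every array.

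The promoter windows of these genes were searched for short motifs, since no sequence enters the symbol rule. The windows run from 250 bases before the annotated start to 50 after it, from RefSeq on mouse build GRCm38.p6, and were found for 20 of 23 translocases and 33 of 42 carriers. The 3 short motifs searched on both strands are linked to nuclear genes for mitochondrial proteins. CCGGAAG is a site of ETS factors such as GABPA, and AAGATGG is part of a YY1 site. GCATGCG is a form of the centre of an NRF1 site. The 5 windows shown are those of the translocases that passed the test and of Timm10 and Tomm22, which hold the most copies of the ETS letters among the translocases. They are written 5' to 3' on the strand of the gene, and capitals mark the ETS letters on either strand.
Timm23 (chr14:32201842-32202141, minus strand): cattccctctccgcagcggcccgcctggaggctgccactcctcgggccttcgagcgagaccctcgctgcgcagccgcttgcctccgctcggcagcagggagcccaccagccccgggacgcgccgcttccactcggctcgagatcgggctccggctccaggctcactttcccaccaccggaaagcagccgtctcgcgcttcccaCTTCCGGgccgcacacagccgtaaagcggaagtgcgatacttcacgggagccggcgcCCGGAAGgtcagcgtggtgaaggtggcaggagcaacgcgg
Tomm20 (chr8:126945872-126946171, minus strand): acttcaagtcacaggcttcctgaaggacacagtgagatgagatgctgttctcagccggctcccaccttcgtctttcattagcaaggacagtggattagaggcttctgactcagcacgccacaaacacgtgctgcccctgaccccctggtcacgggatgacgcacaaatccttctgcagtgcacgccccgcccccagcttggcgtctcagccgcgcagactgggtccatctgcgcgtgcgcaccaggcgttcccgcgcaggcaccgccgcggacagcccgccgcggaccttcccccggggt
Timm8a1 (chrX:134541621-134541920, minus strand): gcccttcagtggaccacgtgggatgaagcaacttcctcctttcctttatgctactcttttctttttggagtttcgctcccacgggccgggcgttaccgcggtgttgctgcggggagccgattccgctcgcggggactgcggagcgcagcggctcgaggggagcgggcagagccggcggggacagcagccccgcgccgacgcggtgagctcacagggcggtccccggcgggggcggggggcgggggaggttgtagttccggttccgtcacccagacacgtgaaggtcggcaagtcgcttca
Timm10 (chr2:84826771-84827070, plus strand): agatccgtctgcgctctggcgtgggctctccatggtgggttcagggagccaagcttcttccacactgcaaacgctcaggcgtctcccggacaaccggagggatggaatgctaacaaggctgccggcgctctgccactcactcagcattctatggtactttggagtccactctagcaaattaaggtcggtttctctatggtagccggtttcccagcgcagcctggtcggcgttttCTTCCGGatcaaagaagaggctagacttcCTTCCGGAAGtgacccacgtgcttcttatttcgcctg
Tomm22 (chr15:79670618-79670917, plus strand): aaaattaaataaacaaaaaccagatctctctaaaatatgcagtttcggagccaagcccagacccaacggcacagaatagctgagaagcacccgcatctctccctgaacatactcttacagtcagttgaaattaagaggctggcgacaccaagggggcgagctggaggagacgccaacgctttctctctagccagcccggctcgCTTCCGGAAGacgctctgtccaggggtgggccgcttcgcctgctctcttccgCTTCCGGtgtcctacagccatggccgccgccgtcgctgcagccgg

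Timm23 holds the ETS letters at positions 204 and 261 of the window, counted from its 5' end. Timm10 holds them at positions 235, 264 and 267 and Tomm22 at 204, 207 and 256, where neighbouring copies overlap on opposite strands. The windows of Tomm20 and Timm8a1 hold none of the 3 motifs, which says only that these letters are absent there. Other forms of the sites were not searched, so a site written with other letters would be missed. The ETS letters occurred in 9 of 20 translocase genes (45.0%) and in 6 of 33 carrier genes (18.2%). They occurred in 2165 of the 14452 measured genes with a window, a share close to that of the carriers and far below that of the translocases. Counted by window and not by gene, the share was 8.86% of all 32851 windows. The NRF1 letters occurred in 1 of 20 translocases and 2 of 33 carriers (6.06%), beside 5.86% of measured genes. The YY1 letters occurred in 3 of 20 translocases and 1 of 33 carriers (3.03%), beside 7.54% of measured genes. Their shares over all windows were 3.58% and 6.34%. The median log2 difference was -0.45 in the 9 translocases with the ETS letters (from -0.96 to 0.33) and -0.42 in the 11 without (from -1.02 to 0.04).

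Of the 65 genes 4 passed the test (6.15%), beside 6.73% of all genes, and the populations did not overlap in 21 (32.3%), beside 28.0%. With the replicate block 13 passed, beside 14.4% of all genes.

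Translocase genes had less signal in LSK than in LK on the whole, and 3 of 23 passed the test, all lower in LSK: Tomm20, Timm23 and Timm8a1. The share lower was 13.0% of the translocases, beside 2.89% of all genes, and 0 passed as higher, beside 3.84% of all genes. At an unadjusted limma p under 0.05, 7 of 23 translocases were lower and 0 higher, beside 11.9% and 10.5% of all genes. Differences were below 0 in 18 of 23, with a median of -0.38, beside 53.3% of all genes and a median of -0.02. The mean log2 intensity over the 23 genes overlapped between the populations, at 6.90 on LSK replicate 1 and 6.63 on LK replicate 2. Many genes on the array are dim, and among the genes with a mean of 4 or more in at least 1 population, 17 of 20 translocases lay below 0 (85.0%, median -0.44), beside 54.9% of 7968 genes (median -0.09), with 3 of 20 lower, beside 6.51%, and 0 higher, beside 8.26%. The populations did not overlap in 7 translocases with less signal in LSK and in 1 with more, beside 14.8% and 13.2% of all genes. With the replicate number as a block, 6 of 23 were lower, beside 7.36% of all genes. The count was 0 when array 1 or 2 of LSK or array 1 or 3 of LK was left out, when both arrays numbered 2 were, and when the 3' to 5' gap was a covariate. The median moved to -0.16 when array 2 of LSK was left out, to -0.18 for array 1 of LK and to -0.61 for array 2 of LK, and to -0.60 with the covariate. In sorted bulk samples, fewer cells of a type and less RNA per cell cannot be told apart. The summed erythroid, granulocyte, dividing-cell, and mast cell and basophil markers were lower on every LSK array than on any LK array. Of the mast cell and basophil genes, Cpa3 differed by -2.98, Mcpt8 by -0.91, Gzmb by -0.19 and Fcer1a by 0.0056, none past the test. The part of these markers' cells in the lower translocase signal was not tested.

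**Figure D1:**
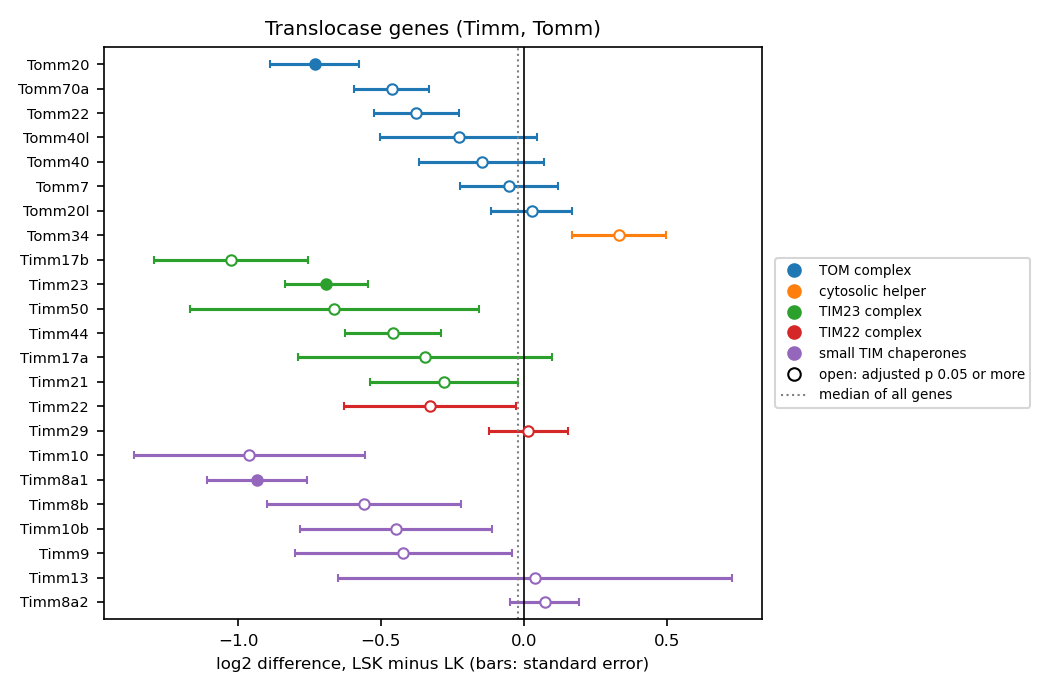
Log2 difference between LSK and LK (LSK minus LK, horizontal axis) for the 23 translocase genes, grouped by complex, with standard errors from limma; filled points passed the test and the dotted line is the median of all genes (-0.02). Points lie left of 0 in 18 of 23 genes, and the filled ones are Tomm20, Timm23 and Timm8a1.

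Among the TOM genes, Tomm20, a receptor for proteins with a targeting sequence, had log2 intensities of 9.77, 9.80 and 10.15 in LSK and 10.79, 10.56 and 10.58 in LK. Every LSK array lay below every LK array. The difference was -0.73 (SE 0.16, 1.66-fold lower in LSK, limma adjusted p = 0.0430, 0.0398 with the replicate block). The call was kept without LSK replicate 3 and lost when any other array was left out (adjusted p from 0.0795 for LK replicate 2 to 0.143 for LSK replicate 1) and when both arrays numbered 2 were (0.129). It was also lost with the covariate (0.564), with averaged probe sets (0.0928) and without probe sets of a suffix (0.0925). Of the 5 other Tomm20 probe sets, 4 differed the same way at an unadjusted p under 0.05, with differences from -1.92 to -0.55, and 1 had more signal in LSK (0.78).

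Tomm70a, the receptor that takes carriers and other proteins without a cleavable sequence, had 9.28, 9.22 and 9.16 in LSK and 9.84, 9.59 and 9.62 in LK. The arrays did not overlap, and the difference of -0.46 (SE 0.13) did not pass (adjusted p = 0.0885, 0.0750 with the block). All 4 of its other probe sets had differences below 0 at an unadjusted p under 0.05, from -1.70 to -0.32, and their mean with the first passed at -0.96 (adjusted p = 0.0355). Tomm22, the central receptor that holds the complex together, had 10.27, 10.38 and 10.24 in LSK and 10.85, 10.45 and 10.72 in LK, without overlap (difference -0.38, SE 0.15, adjusted p = 0.198). Tomm40, the channel, was read only near the lower end of the range, at 3.23, 2.89 and 2.83 in LSK and 3.35, 2.71 and 3.33 in LK (difference -0.15, SE 0.22, adjusted p = 0.758). Tomm7, a small subunit, had a difference of -0.05 (SE 0.17) and Tomm40l, a Tomm40 paralog, -0.23 (SE 0.27). Tomm34, a cytosolic partner of incoming proteins outside the complex, had 10.63, 10.28 and 10.15 in LSK and 10.06, 9.91 and 10.09 in LK. It was the 1 translocase without overlap and with more signal in LSK (difference 0.33, SE 0.16, adjusted p = 0.299).

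All 6 TIM23 genes had differences below 0, and in each of them every LSK array lay below the LK array of the same number, as in 14 of 23 translocases and 27.3% of all genes. Timm23, the channel subunit, had 8.90, 8.97 and 8.91 in LSK and 9.76, 9.38 and 9.70 in LK. The LSK arrays lay close together and well below the LK arrays, with a difference of -0.69 (SE 0.15, 1.61-fold lower in LSK, adjusted p = 0.0406, 0.0391 with the block). The call was kept without LK replicate 2 (0.0378) and lost without each other array (0.0857 for LSK replicate 3 to 0.147 for LK replicate 3), when both arrays numbered 2 were left out (0.0563) and in the covariate fit (0.304). Timm23 has 1 probe set, so no other reading of it was available.

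Timm17b and Timm17a are alternative partners of Timm23. Timm17b had 7.77, 7.36 and 8.32 in LSK and 8.95, 8.55 and 9.02 in LK, without overlap. Its difference of -1.02 (SE 0.27, adjusted p = 0.0728) passed with the replicate block (0.0167), and its other probe set gave -0.20 (SE 0.49). Timm17a had 6.08, 4.997 and 5.65 in LSK and 6.495, 5.01 and 6.26 in LK, which overlap (difference -0.35, SE 0.45, adjusted p = 0.717). Its difference was -0.06 when array 2 of LSK or array 1 of LK was left out and -0.80 when array 2 of LK was. The arrays numbered 2 were the lowest in both populations for both partners. Timm50, the receptor of the complex, had 4.51, 2.83 and 3.82 in LSK and 4.99, 3.599 and 4.55 in LK. The spread within each population exceeded the difference of -0.66 (SE 0.51, adjusted p = 0.517), but the same-numbered arrays differed alike and the gene passed with the block (0.0334). The difference ran from -0.22, when array 2 of LSK was left out, to -1.06, when array 1 of LSK or array 2 of LK was. The other Timm50 probe sets, near the lower end, gave 0.09 and -0.13, and the mean over its probe sets was -0.23 (limma adjusted p = 0.478). Timm44, which anchors the import motor, had 5.45, 5.64 and 5.69 in LSK and 6.19, 5.77 and 6.21 in LK, without overlap (difference -0.46, SE 0.17, adjusted p = 0.167). Timm21, which links the complex to the respiratory chain, had a difference of -0.28 (SE 0.26).

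The small TIM chaperones held the third call. Timm8a1, the mouse counterpart of the human deafness-dystonia gene, had 10.42, 10.06 and 10.44 in LSK and 11.47, 11.06 and 11.19 in LK. No LSK array reached the lowest LK array, and the difference was -0.93 (SE 0.17, 1.91-fold lower in LSK, adjusted p = 0.0299, 0.0146 with the block). It was kept without LSK replicate 3 or LK replicate 2 and lost when LSK replicate 1 (0.0856) or 2 (0.0715) or LK replicate 1 (0.0737) or 3 (0.103) was left out, when both arrays numbered 2 were (0.0650) and in the covariate fit (0.383). With averaged probe sets it was lost as well (0.0573). Its other probe set differed the same way (-0.66, unadjusted p = 0.0352).

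Timm10, which pairs with Timm9 to carry the hydrophobic carriers, had 7.36, 6.69 and 6.32 in LSK and 8.47, 7.09 and 7.70 in LK. LSK replicate 1 lay above LK replicate 2, and the difference of -0.96 (SE 0.40, adjusted p = 0.224) passed with the block (0.0411) and under none of the other settings run. Timm8b had a difference of -0.56 (SE 0.34), Timm10b -0.45 (SE 0.34) and Timm9 -0.42 (SE 0.38), none past the test. Timm13, the partner of Timm8a1, spread from 4.73 to 6.27 in LSK and from 3.82 to 6.08 in LK (difference 0.04, SE 0.69). Timm22, the channel that inserts the carriers, had 5.04, 4.27 and 4.67 in LSK and 5.28, 4.42 and 5.27 in LK (difference -0.33, SE 0.30, adjusted p = 0.595; -0.14 with array 2 of LSK left out and -0.61 with array 2 of LK left out), and its partner Timm29 had a difference of 0.02 (SE 0.14). Timm8a2 and Tomm20l stayed below 3 on every array.

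The carriers did not share a direction. Of 42 carriers 1 passed as higher in LSK, Slc25a24, which is 2.38% beside 3.84% of all genes, and 0 passed as lower, beside 2.89%. At an unadjusted limma p under 0.05, 7 of 42 were higher and 6 lower, beside 10.5% and 11.9% of all genes. Differences were below 0 in 23 of 42, with a median of -0.04, and among the 24 carriers with a mean of 4 or more in at least 1 population they split evenly, with 12 below 0 and a median of 0.03. The populations did not overlap in 7 carriers with more signal in LSK and 6 with less, beside 13.2% and 14.8% of all genes. With the replicate block 4 passed as higher and 3 as lower, beside 7.02% and 7.36% of all genes. The count was 0 when array 1 of LSK or both arrays numbered 2 were left out and with the covariate, 4 when array 3 of LSK was left out and 2 when array 2 of LK was. When 1 array was left out, the median stayed between -0.12 (array 1 of LSK) and -0.0017 (array 2 of LSK).

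**Figure D2:**
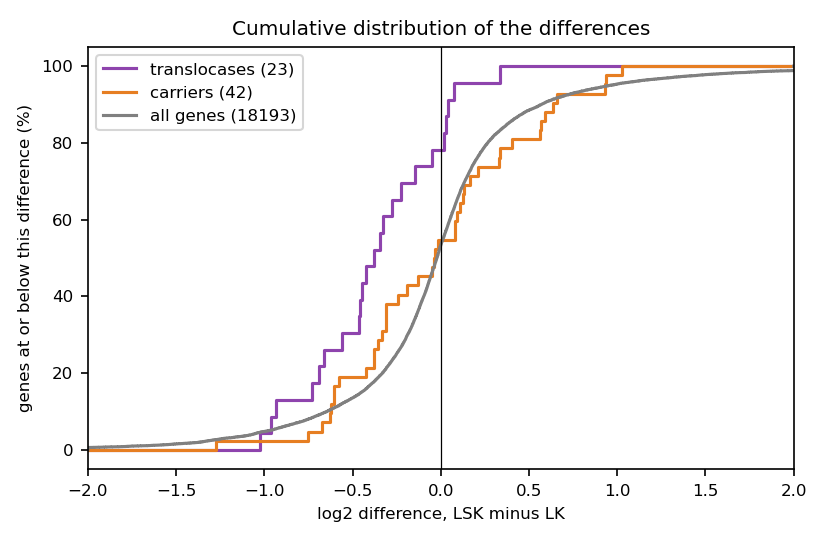
Share of genes (vertical axis, percent) with a log2 difference at or below the value on the horizontal axis, for the 23 translocases, the 42 carriers and all 18193 genes; values beyond 2 in either direction are not drawn. The translocase curve lies left of the others around its middle (median -0.38) but starts further right (lowest value -1.02, beside -1.27 for the carriers). The carrier curve crosses 0 near its middle (median -0.04).

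Slc25a24, an ATP-Mg/phosphate carrier that adjusts the adenine nucleotide content of the matrix in response to calcium, had 9.79, 9.94 and 9.81 in LSK and 8.93, 8.80 and 9.03 in LK. The groups were far apart for their spread, with a difference of 0.93 (SE 0.13, 1.91-fold higher in LSK, adjusted p = 0.0122, 0.0158 with the block). The call was lost without LSK replicate 1 (0.0545), without both arrays numbered 2 (0.0591), with the covariate (0.284) and when its probe sets were averaged (difference 0.36, adjusted p = 0.122). The other probe set lay between 2.75 and 3.13 in LSK and between 2.91 and 3.55 in LK, near the lower end. Its paralog Slc25a23 had 4.07, 3.52 and 4.24 in LSK and 3.52, 3.39 and 3.23 in LK (difference 0.57, SE 0.21, adjusted p = 0.176), and Slc25a25 and Slc25a41 had differences of -0.03 and 0.13.

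The ADP/ATP and phosphate carriers, which feed ATP synthase and export its product, had differences below 0 in 4 of 4, none past the test. Slc25a5, the ADP/ATP carrier of dividing cells, had 10.47, 10.56 and 10.85 in LSK and 11.34, 11.14 and 11.29 in LK. The arrays did not overlap, and the difference of -0.63 (SE 0.15, adjusted p = 0.0571) passed with the block (0.0457). All 7 of its other probe sets had differences below 0, from -0.61 to -0.45, and 5 of these had an unadjusted p under 0.05. Slc25a4, the ADP/ATP carrier best known from heart and muscle, had 9.52, 9.47 and 10.14 in LSK and 10.18, 9.89 and 10.003 in LK (difference -0.31, SE 0.21, adjusted p = 0.460). Its direction was not settled, since 2 other probe sets gave 0.23 and 0.32 and the mean over its probe sets was 0.058. Slc25a31, the germ-cell form, was near the lower end, at 2.84, 2.92 and 2.82 in LSK and 2.65, 3.49 and 2.82 in LK (difference -0.13, SE 0.23, adjusted p = 0.801).

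Slc25a3, the phosphate carrier, was read in opposite ways by its probe sets. The brighter one had 9.74, 9.53 and 10.35 in LSK and 10.57, 10.33 and 10.53 in LK (difference -0.60, SE 0.23, adjusted p = 0.179). The dimmer one had 6.96, 6.65 and 7.34 in LSK and 4.34, 4.67 and 5.38 in LK, with a difference of 2.19 (SE 0.30, adjusted p = 0.0164 over all probe sets). Slc25a53, a carrier of unassigned substrate, was split likewise, with -0.63 (SE 0.27) on the brighter probe set and 1.88 (SE 0.34, adjusted p = 0.0360) on the other. Among the 65 genes, 36 had more than 1 probe set, and in 5 (Tomm20, Timm10b, Slc25a3, Slc25a44 and Slc25a53) another probe set had the opposite sign with an unadjusted p under 0.05. Probe sets of a gene can read different transcript ends or forms, which the annotation used does not separate.

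**Figure D3:**
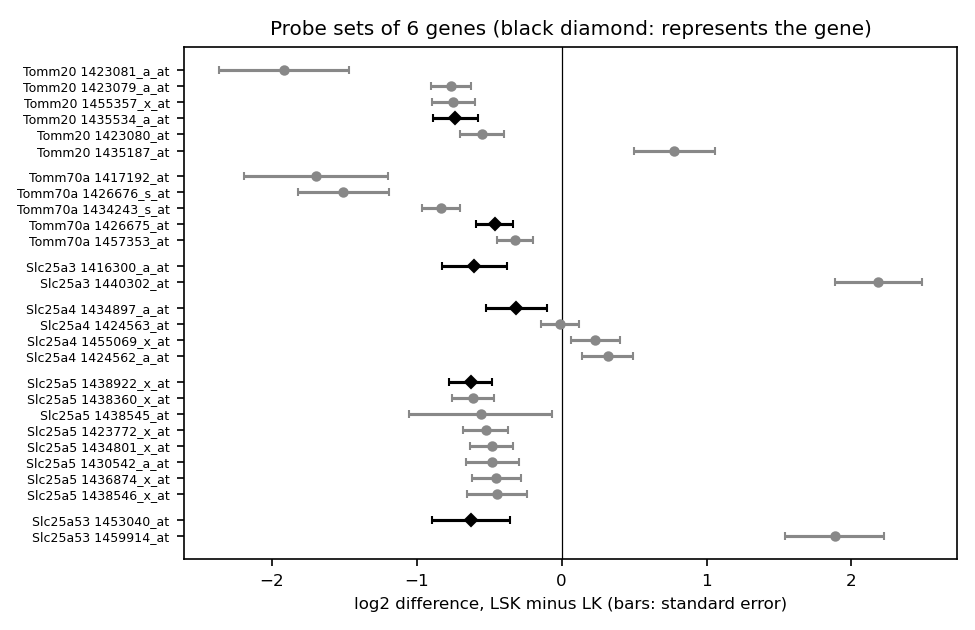
Log2 difference between LSK and LK (LSK minus LK, horizontal axis) for every probe set of 6 genes, with standard errors from a limma fit over all probe sets; black diamonds mark the probe set that represents the gene. The 8 Slc25a5 and 5 Tomm70a probe sets all lie below 0, while Slc25a3, Slc25a53, Slc25a4 and Tomm20 have probe sets on either side.

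Carriers related to the uncoupling proteins, inner membrane proteins that can dissipate the proton gradient, had differences above 0 in 3 of 3, none past the test. Slc25a27 had 4.06, 5.22 and 4.57 in LSK and 3.23, 4.24 and 3.30 in LK. LSK replicate 1 lay below LK replicate 2, and the difference of 1.03 (SE 0.38, adjusted p = 0.171) passed with the block (0.0141). Its other probe sets, near the lower end, gave -0.01, 0.21 and 0.21, and the mean over its probe sets was 0.36 (limma adjusted p = 0.413). Slc25a30 had 5.06, 4.89 and 4.09 in LSK and 4.03, 3.48 and 3.72 in LK, without overlap (difference 0.94, SE 0.29, adjusted p = 0.109, 0.0478 with the block). Its probe set carries a suffix for several transcripts, and the brightest of its other probe sets, near the lower end, gave -0.34. Slc25a14 had 7.80, 7.52 and 7.11 in LSK and 6.996, 6.87 and 6.79 in LK, without overlap (difference 0.59, SE 0.20, adjusted p = 0.135). The uncoupling proteins Ucp1 (0.11) and Ucp3 (-0.26, without overlap) were dim in both populations, and neither passed.

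Carriers of fuel molecules pointed both ways. Slc25a20, which brings acylcarnitines in for fatty acid oxidation, had 10.66, 10.39 and 10.35 in LSK and 9.95, 9.79 and 9.98 in LK. Each LSK array exceeded each LK array, and the difference of 0.56 (SE 0.14, adjusted p = 0.0667, 0.0542 with the block) missed the threshold. The carboxylate carriers Slc25a1 (citrate), Slc25a10 (dicarboxylates) and Slc25a11 (oxoglutarate) had differences of -0.67, -0.42 and -0.31, all with overlapping arrays and population means of at most 4.31. Of the 8 amino acid carriers 6 had differences below 0, from -0.58 for the aspartate-glutamate carrier Slc25a12 (SE 0.34), and its paralog Slc25a13 had -0.01 (SE 0.18). The ornithine carrier Slc25a15 had a difference of -0.38 (SE 0.37). The glutamate carrier Slc25a22 (-0.38) and Slc25a2 (-0.33) did not overlap, but both stayed below 3.42 on every array. Slc25a18, another glutamate carrier (-0.24), and Slc25a29, a carrier of basic amino acids (0.11), were dim in both populations. Slc25a44, a carrier of branched-chain amino acids, had 7.37, 5.81 and 5.85 in LSK and 6.58, 4.50 and 5.97 in LK (difference 0.66, SE 0.63), while a dimmer probe set of it gave -1.02 (adjusted p = 0.0326 over all probe sets).

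Among carriers of cofactors and nucleotides, Slc25a32, which brings folates into the matrix, had 5.15, 4.11 and 4.55 in LSK and 6.30, 5.45 and 5.88 in LK. The arrays did not overlap, and this difference of -1.27 (SE 0.32, adjusted p = 0.0654), the largest in size among the 65 genes, passed with the block (0.00679). Its other probe sets gave -0.74 and -0.29. Slc25a36, a pyrimidine nucleotide carrier, and Slc25a51, the NAD carrier, had differences of 0.21 (SE 0.19) and 0.33 (SE 0.23), with overlapping arrays. The S-adenosylmethionine carrier Slc25a26 had a difference of 0.17 (SE 0.21), and Slc25a33, another pyrimidine nucleotide carrier, -0.31 (SE 0.23). The dimmer Slc25a16, Slc25a17 and Slc25a42 had -0.61, 0.08 and -0.04.

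The paralogs Slc25a39 and Slc25a40, of which the first is known to import glutathione, differed in opposite directions. Slc25a39 had 9.70, 9.03 and 9.72 in LSK and 10.25, 10.13 and 10.34 in LK, without overlap (difference -0.75, SE 0.21, adjusted p = 0.0898, 0.0375 with the block). Slc25a40 had 6.41, 6.57 and 6.08 in LSK and 5.86, 5.94 and 5.36 in LK, also without overlap (difference 0.64, SE 0.21, adjusted p = 0.135, 0.0325 with the block). Slc25a28, the iron carrier mitoferrin 2, had a difference of -0.36 (SE 0.19). Slc25a46, a family member that sits in the outer membrane and acts in mitochondrial fusion and fission, had 0.08 (SE 0.18), and Slc25a45 had 0.40 (SE 0.24). In the group of other carriers, Slc25a34, Slc25a35, Slc25a47, Slc25a48 and Slc25a54 were dim, with differences from -0.19 to 0.34.

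**Figure D4:**
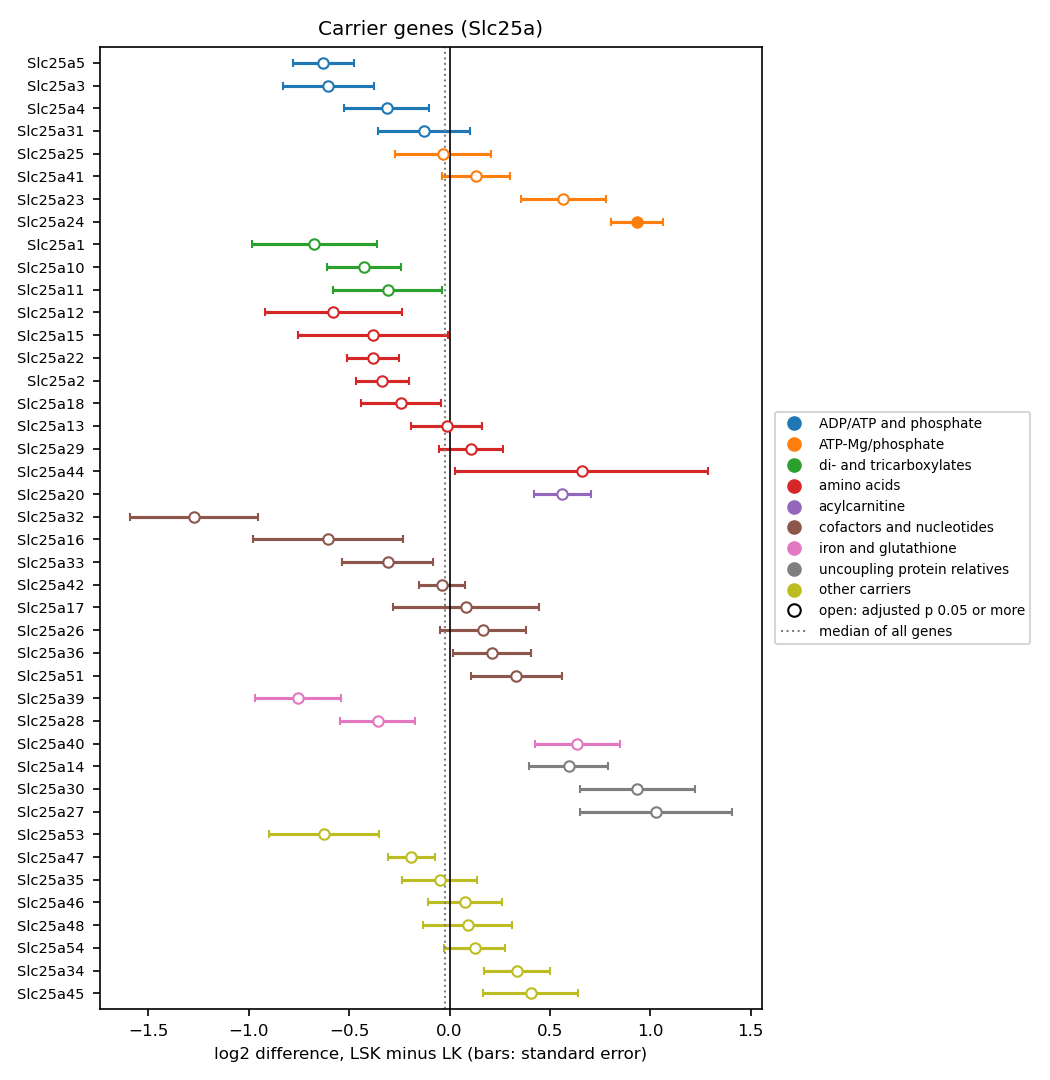
Log2 difference between LSK and LK (LSK minus LK, horizontal axis) for the 42 carrier genes, grouped by what they carry, with standard errors from limma; the filled point passed the test and the dotted line is the median of all genes (-0.02). The 3 uncoupling protein relatives lie right of 0, the 4 ADP/ATP and phosphate carriers and 3 carboxylate carriers left of it, and Slc25a24 is the filled point at 0.93.

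**Figure D5:**
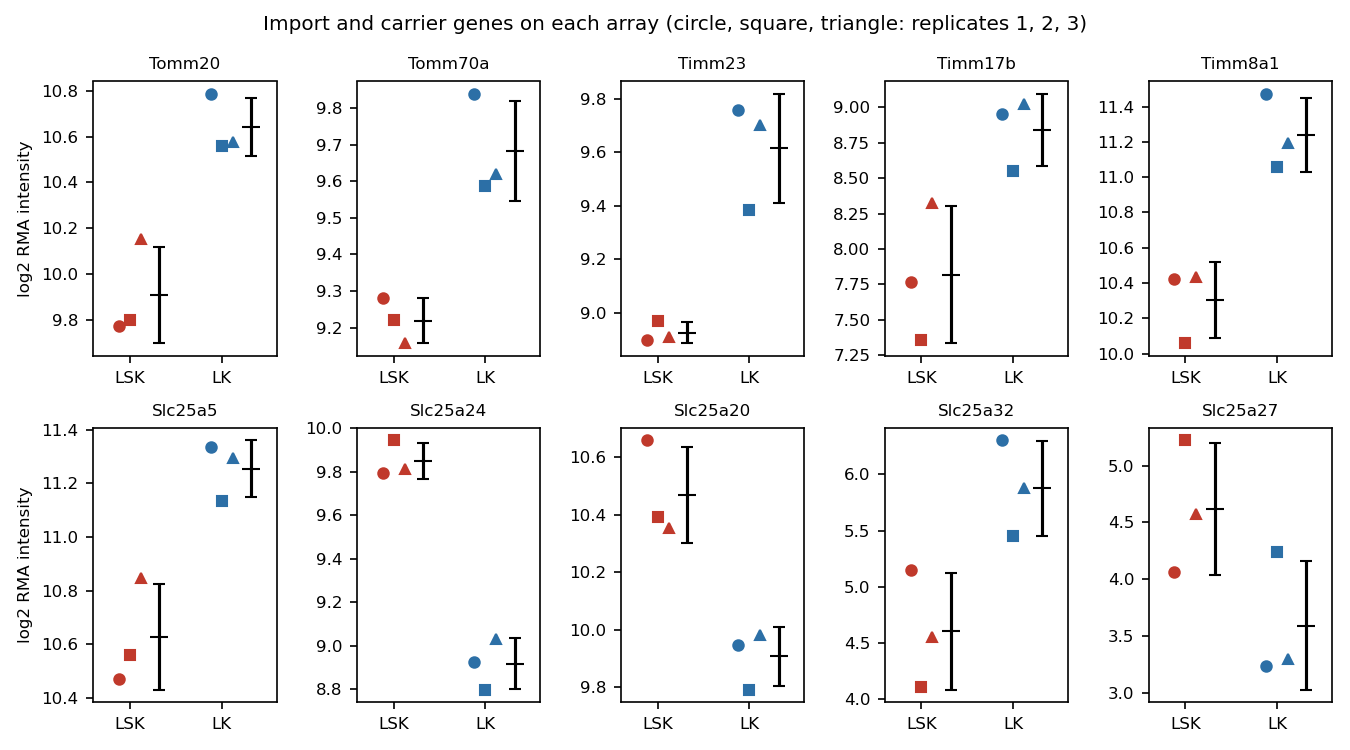
Log2 intensity (vertical axes, a separate scale for each gene) of 10 genes on the 3 LSK and 3 LK arrays; symbols give the replicate number and the bars the mean and SD of each population. Tomm20, Tomm70a, Timm23, Timm17b, Timm8a1, Slc25a5 and Slc25a32 lie lower on every LSK array than on any LK array, Slc25a24 and Slc25a20 higher, and Slc25a27 overlaps.

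Import genes outside the symbol rule also lay mostly below 0, in 21 of 25. Of 25 measured of 27 listed, 5 were lower in LSK (beside 2.89% of all genes) and 0 higher. The counts were 11 lower and 0 higher at an unadjusted limma p under 0.05 (beside 11.9% and 10.5%), with a median difference of -0.49. Of these 25, 24 reached the mean used for the translocases to set dim genes aside. Among all 7968 genes that reached it, 6.51% were lower, 8.26% higher and 54.9% below 0 (median -0.09). With the block 7 of the 25 import genes passed, all lower, beside 7.36% of all genes. Those added were Grpel1 (adjusted p = 0.108, 0.0449 with the block), which drives the import motor's chaperone cycle, and Cox18 (0.126, 0.0458 with the block). The chaperonin genes Hspd1 (-1.17, adjusted p = 0.0172) and Hspe1 (-0.74, 0.0482), which fold proteins after import, were among the 5 that passed without the block. The others were Samm50, which inserts barrel proteins in the outer membrane (-1.05, 0.0305), Chchd4, which traps proteins in the space between the membranes by forming disulfides (-0.86, 0.0330), and Mtch2, an outer membrane insertase (-0.99, 0.0152). The number that passed was 1 when array 1 or 2 of LSK or both arrays numbered 2 were left out, 2 for array 1 of LK, and 0 for array 3 of LK and with the covariate.

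Of 17 transport genes outside the Slc25 symbols measured of 22 listed, 1 was higher in LSK and 3 lower, beside 3.84% and 2.89% of all genes, with a median difference of -0.01. With the block 2 were higher and 4 lower, beside 7.02% and 7.36% of all genes. Those added were Mpc1, a subunit of the pyruvate carrier (adjusted p = 0.182, 0.0150 with the block), and Sfxn4 (0.0528, 0.0462 with the block). With averaged probe sets 2 were higher and 0 lower. Sfxn3, a sideroflexin, was higher (10.45, 10.21 and 10.32 in LSK and 9.44, 8.74 and 9.06 in LK, difference 1.25, adjusted p = 0.0181). Its paralog Sfxn1, a serine transporter, was lower (9.17, 8.90 and 9.38 in LSK and 10.24, 9.87 and 10.13 in LK, difference -0.93, adjusted p = 0.0322). Abcb10 (-0.89, 0.0288), a transporter needed in erythroid cells, and Tspo (-1.27, 0.0385), which lies in the outer and not the inner membrane, were lower too. The count was 1 when array 2 of LSK, array 1 of LK or both arrays numbered 2 were left out, and 0 for array 1 of LSK or 3 of LK and with the covariate.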

How the data were processed

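The authors deposited linear probe set intensities from RMA (affy, R 2.11.0), per the submitters' processing notes. This method is meant to equalise the arrays, so a change common to every gene may not appear. The arrays numbered 2 still differed from the others in their upper quartile. Precision rests on the few arrays, and detection calls were not analysed here. Intensities were log2 transformed. Of 45037 probe sets other than 64 controls, 34945 carried 1 symbol, 932 several (4 of these with a member's symbol, not used) and 9160 none. A RefSeq table (GRCm38.p6) matched 34741 and updated their symbols. The probe set of highest mean log2 stood for its gene. For 24 of the 65 members it carries a suffix (x, s or a) marking probes shared among transcripts or open to cross-hybridisation.

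Two-sided tests came from limma 3.58.1 (R 4.3.3, lmFit, eBayes), with Benjamini-Hochberg adjustment over 18193 genes and population alone in the model. They were also run on simulated data in which the arrays varied independently, so that run does not cover arrays that deviate together. Same-numbered arrays deviated together (their departures from the population means correlated across genes at 0.42, 0.43 and 0.27, other numbers at 0.04 at most). The number was therefore taken as a pairing, drawn from the data and not from the labels, and blocked values are given where they change a member's call, with blocked counts for the lists. Since deviations sum to 0 within a population, that contrast is partly built in. Separate animals for the arrays are not stated in the labels, so a p-value here reflects only how these samples spread. Alternatives were the block, other normalisations, a filter on dim genes, other probe set choices, variance models and array weights, the 3' to 5' gap as a covariate and leaving out arrays; leaving out both arrays numbered 2 was chosen after seeing the data.

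The members and lists were chosen with earlier results of these data known. The naming rule took members past the threshold, the 3 largest other differences in each class, and 13 core genes (Tomm20, Tomm22, Tomm40, Tomm70a, Timm17a, Timm23, Timm44, Timm50, Timm22, Slc25a3, Slc25a4, Slc25a5, Slc25a31), plus list genes past the threshold. The other genes described were chosen after their values were seen.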

Additional observations from a re-analysis of the deposited data

How the results depend on the processing

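Counts of genes past the limma threshold depended on the fit far more than directions did. With the replicate block 2617 genes passed, 6 translocases and 7 carriers, and with array weights 2606 genes, 6 translocases, 9 carriers, 8 other import genes and 7 other transport genes. With the 3' to 5' gap as a covariate 25 genes passed and 0 in each of the 4 lists (6, 5, 6 and 5 at an unadjusted p under 0.05), and 20 of 23 translocases and 34 of 42 carriers had the same sign as before; among those turned were Timm13 (-1.17), Slc25a44 (-0.58), Slc25a17 (-0.41) and Slc25a51 (-0.05). Without both arrays numbered 2, 537 genes, 0 translocases, 0 carriers (10 and 12 unadjusted), 1 import and 1 transport gene passed. Carriers past the threshold numbered 4 with a trended robust variance, 3 with renewed quantile or loess normalisation, 2 with the filter on dim genes, 2 without probe sets of suffix x, s or a, and 0 (10 unadjusted) with averaged probe sets. With averaged probe sets 3 import genes passed, and 2 transport genes, both higher in LSK; without those suffixes 2 import genes passed. Without 1 array in turn, the counts ran from 306 to 1269 genes, 0 to 3 translocases (5 to 11 unadjusted), 0 to 4 carriers (6 to 14), 0 to 5 import genes (6 to 14) and 0 to 3 transport genes (5 to 8). The block changed the call of Timm17b, Timm10, Timm50, Slc25a32, Slc25a27, Slc25a30, Slc25a39, Slc25a40 and Slc25a5 among the members. Among the genes named by the rule, differences changed sign for Slc25a30 without those suffixes (-0.34), Slc25a3 with averaged probe sets (0.79) and without those suffixes (2.19), Slc25a4 with averaged probe sets (0.058) and with the covariate (0.013), and Slc25a31 with the covariate (0.15), without LK replicate 2 (0.12, within -0.30 to 0.12 over the arrays left out singly) and without both arrays numbered 2 (0.092). Leaving out 1 array turned the sign of 5 translocases (Timm13, Timm29, Tomm20l, Tomm40l and Tomm7) and 11 carriers at least once. Where probe sets were exchanged the values come from other probes; for the others the cause was not tested. Dim signal limits 21 of the 65 members, whose differences are compressed.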

Other observations

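Signal of the import and carrier genes also varied with the replicate number. In 10 of 23 translocases (43.5%) and 19 of 42 carriers (45.2%), the array numbered 2 was the lowest of its population in both LSK and LK, beside 23.3% of all genes. The mean log2 intensity over the 23 translocases was 6.90, 6.44 and 6.63 on LSK arrays 1 to 3 and 7.30, 6.63 and 7.17 on LK arrays 1 to 3. The populations overlapped in this mean: LSK replicate 1 lay above LK replicate 2, and LSK replicate 3 was level with it. Over the 42 carriers the means were 5.48, 5.27 and 5.42 in LSK and 5.55, 5.26 and 5.45 in LK. Over all genes they were 4.65, 4.54 and 4.64 in LSK and 4.66, 4.58 and 4.64 in LK, so that array 2 was the lowest there too.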
